A study of Mus musculus with 4 samples.

Results

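The genes described here are 10 genes by which regulatory T cells are commonly recognised, Foxp3, Ctla4, Ikzf2, Izumo1r, Nrp1, Gpr83, Capg, Tnfrsf4, Tnfrsf18 and Icos. Every probe set that the platform annotation gives to one of these symbols alone was taken, which gave 13 of the 22690 probe sets of the array, and the 10 genes are among 12393 genes that could be named. Nrp1 had 3 probe sets, Icos 2, and each of the others 1. Affymetrix MOE430A_2.0 arrays were used to measure expression in T cells from spleens of C57BL/6 mice, sorted after staining for CD4, CD8 and CD44. The 4 groups were CD4+ T cells labelled Gfi1 knockout, CD4+ T cells labelled wildtype, CD8+ T cells labelled Gfi1 knockout and CD8+ T cells labelled wildtype, all untreated and all described as CD44lo, and the age and sex of the mice and the construction of the Gfi1 allele were not stated in the sources used here. Each group has 1 array, for which the RNA of 2 mice was pooled, so no spread between animals or arrays could be measured. The stated aim was to compare naive T cells of the labelled genotypes.

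Regulatory T cells are a branch of the CD4 lineage that restrains other lymphocytes. The forkhead factor Foxp3 is needed for their identity, and most leave the thymus already committed while others arise in the periphery. They carry the inhibitory receptor Ctla4 and depend on interleukin 2 from other T cells. Several of their characteristic genes, among them Ctla4, Icos, Tnfrsf4 and Tnfrsf18, are also switched on in conventional CD4 T cells after activation.

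The array labels were first set against defining genes. Cd4 read 5470 and 5901 in CD4 cells labelled knockout and wildtype, and its signal was 8.4 and 18.9 in the corresponding CD8 cells, below the floor of 93.9, the 40th percentile of all signals, under which values were not ordered. Cd3e, a chain of the T cell receptor complex, was level, with 7468, 7371, 6451 and 6193 in knockout CD4, wildtype CD4, knockout CD8 and wildtype CD8 cells. Gfi1 itself was not lower on the arrays labelled knockout, with 2891 in knockout CD4 against 2272 in wildtype CD4 cells and 2447 in knockout CD8 against 1158 in wildtype CD8 cells. The position of its probe set relative to the deleted part was not stated in the sources used here, and this does not check the genotype labels. Cd44 read 196 in knockout CD4 against 8136 in wildtype CD4 cells and 252 in knockout CD8 against 5740 in wildtype CD8 cells, although all samples are described as CD44lo. The sample titles end in the letter N on the arrays labelled knockout and in M on those labelled wildtype, and the labels do not explain these letters. The labelled genotype and the level of Cd44 therefore cannot be told apart on these arrays. Genotype is given as labelled throughout.

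Signals of the 10 genes were highest in CD4 cells labelled wildtype, with 1 exception. In 9 of 10 genes, and 12 of 13 probe sets, the array labelled wildtype CD4 had the highest signal of the 4, against 32.9% of the 8629 genes with at least 1 array above the floor. Gpr83 was highest on the array labelled knockout CD4. With signals below the floor set to it, both CD4 arrays read higher than both CD8 arrays in 9 of the 10 genes and 12 of the 13 probe sets, an order found in 16.3% of the 8629 genes. Ikzf2, with 3 arrays below the floor, could not be ordered in this way. On the arrays labelled knockout CD4, wildtype CD4, knockout CD8 and wildtype CD8, 9, 10, 8 and 7 of the 10 genes lay above the floor.

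**Figure D1:**
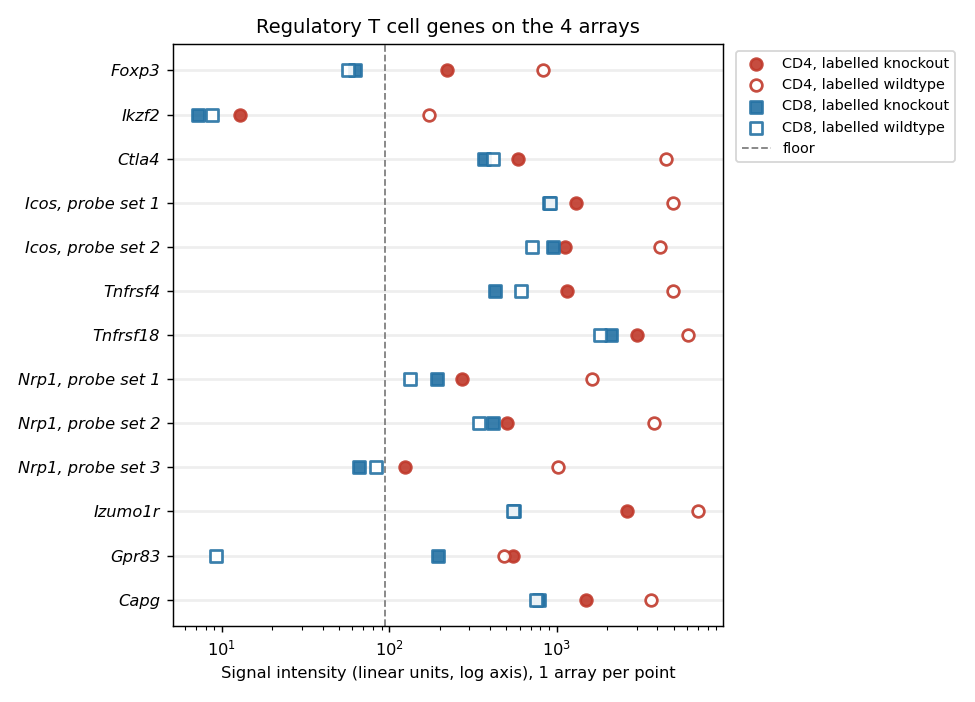
Signal intensity (log axis) of the 13 probe sets of the 10 genes, 1 point per array; red circles are CD4 and blue squares CD8 cells, filled symbols are arrays labelled knockout and open symbols those labelled wildtype, and the dashed line is the floor of 93.9. The open red circle of wildtype CD4 is the highest in 12 of 13 probe sets, with Gpr83 the exception, and filled and open squares of CD8 cells lie close together except in Gpr83.

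Promoter sequences are shown for Foxp3, Ctla4 and Tnfrsf4, whose profiles over the arrays were alike, and for Gpr83, the gene that departed from them. That of Nrp1, nearer to Ctla4 in profile than Foxp3 or Tnfrsf4, is not shown and had no match to the motifs below. The same holds for Capg, nearer to Foxp3 in profile than Ctla4 is, and for the first start of Foxp3. The sequences are from RefSeq (GRCm38.p6), run 5′ to 3′ on the gene's strand, and cover 250 bases before and 50 after an annotated start. RefSeq promoters were matched for 8 of the 10 genes, and Foxp3 has 2 annotated starts, of which the second is shown. Capitals mark matches, on either strand, to TTCNNNGAA, the palindrome read by STAT factors, and to TGGAAA, the core read by NFAT factors. These lie at chrX:7580233-7580532 (plus strand), chr1:60908775-60909074 (plus strand), chr4:156013445-156013744 (plus strand) and chr9:14859960-14860259 (plus strand), in the order below.
Foxp3: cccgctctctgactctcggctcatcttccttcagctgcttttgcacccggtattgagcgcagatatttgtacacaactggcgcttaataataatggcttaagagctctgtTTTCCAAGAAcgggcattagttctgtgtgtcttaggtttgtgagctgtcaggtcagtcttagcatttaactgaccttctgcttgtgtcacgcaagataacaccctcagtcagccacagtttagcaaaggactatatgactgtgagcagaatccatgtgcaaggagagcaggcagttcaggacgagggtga
Ctla4: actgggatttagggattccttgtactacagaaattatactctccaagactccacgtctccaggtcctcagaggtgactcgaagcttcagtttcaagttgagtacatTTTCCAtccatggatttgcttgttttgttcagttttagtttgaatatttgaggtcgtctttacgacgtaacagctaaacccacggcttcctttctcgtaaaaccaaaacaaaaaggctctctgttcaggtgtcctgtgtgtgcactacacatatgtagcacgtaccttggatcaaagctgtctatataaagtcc
Tnfrsf4: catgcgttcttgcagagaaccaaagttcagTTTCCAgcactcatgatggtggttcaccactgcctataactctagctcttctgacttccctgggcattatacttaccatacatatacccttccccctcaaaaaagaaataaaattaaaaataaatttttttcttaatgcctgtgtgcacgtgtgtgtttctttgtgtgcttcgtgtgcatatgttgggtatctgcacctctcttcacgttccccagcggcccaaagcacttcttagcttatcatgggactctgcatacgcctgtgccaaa
Gpr83: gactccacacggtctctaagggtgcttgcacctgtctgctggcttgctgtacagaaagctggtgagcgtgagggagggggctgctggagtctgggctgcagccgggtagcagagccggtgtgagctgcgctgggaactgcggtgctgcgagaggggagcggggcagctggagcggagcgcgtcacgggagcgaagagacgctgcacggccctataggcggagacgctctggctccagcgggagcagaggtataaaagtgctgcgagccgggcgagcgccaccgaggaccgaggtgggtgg

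The motif TGGAAA was found in 4 of the 9 promoters of these genes (Foxp3, Ctla4, Izumo1r and Tnfrsf4) and in 21.4% of all 32851 promoters of the table. In Foxp3 its match overlaps one to TTCNNNGAA, which was found in 2 of 9 promoters (Foxp3 and Tnfrsf18) and in 8.30% of all. The forkhead motif GTAAACA was found in 0 of 9 and in 3.65% of all, and AAATCA, which holds the core read by Gfi1, in 1 of 9 (Tnfrsf18) and in 14.0% of all. Gpr83 had no match to any of the 4 motifs in this window. Nor had Nrp1, Capg and the first start of Foxp3, genes that were lower in CD4 cells labelled knockout. Gpr83 had the highest content of G and C of the 9 promoters, 67.0%, with 24 CpG dinucleotides. The promoter of Nrp1 came near it with 64.0% and 14 CpG, and those of Ctla4 and Tnfrsf4 had 8 and 6 CpG. A match of letters is a description of the sequence and not a site.

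In CD4 cells, 8 of the 10 genes were at least 2-fold lower on the array labelled knockout than on the array labelled wildtype, and 0 were at least 2-fold higher. Over all 8150 genes with a difference in CD4 cells, 7.73% were at least 2-fold lower and 2.06% at least 2-fold higher. The median log2 difference of the 10 genes was -1.66, against -0.02 over all genes. With the arrays centred on their medians, which moves the median of all genes to 0.28, 6 of the 10 were at least 2-fold lower, where 5.81% of all genes were lower and 5.19% higher, and with quantile normalization 8 were, where 6.52% were lower and 3.24% higher. With 1 array on each side these differences have no test, and in bulk RNA fewer cells of a type and less RNA per cell cannot be told apart.

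Foxp3 and Ikzf2 are the transcription factors of the group. Foxp3, which defines the lineage, read 221 in CD4 cells labelled knockout against 824 in CD4 cells labelled wildtype, 3.72-fold lower. In CD8 cells it read 62.3 and 57.1 in those labelled knockout and wildtype. The lineage factor was thus above the floor on both CD4 arrays and below it on both CD8 arrays. Ikzf2 encodes Helios, an Ikaros family factor of many thymus-derived regulatory T cells. It read 12.8 in CD4 cells labelled knockout against 172 in CD4 cells labelled wildtype, and 7.2 and 8.7 in CD8 cells labelled knockout and wildtype. Ikzf2 was above the floor on the array labelled wildtype CD4 and on no other and was thus at least 1.83-fold lower in CD4 cells labelled knockout. The related Ikaros family genes were nearer level: Ikzf1 read 1823 in knockout CD4 against 1344 in wildtype CD4 cells, and Ikzf4 read 109 against 135 in the same order.

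Ctla4 and Icos are paralogues of the CD28 family with opposite roles. Ctla4, whose product competes with Cd28 for the ligands Cd80 and Cd86, read 585 in CD4 cells labelled knockout against 4490 in CD4 cells labelled wildtype, 7.67-fold lower. In CD8 cells it read 368 and 417 in those labelled knockout and wildtype. The array labelled wildtype CD4 stood apart, and the knockout CD4 array lay nearer to the CD8 arrays. Icos, an inducible costimulator of activated, follicular helper and regulatory T cells, was read by 2 probe sets. The probe set 1421930_at gave 1296 in CD4 cells labelled knockout against 4964 in CD4 cells labelled wildtype, and 895 against 910 in CD8 cells of the same labels. The probe set 1421931_at gave 1124 against 4145 in CD4 cells and 948 against 715 in CD8 cells of the same labels. The probe sets gave 3.83-fold and 3.69-fold lower signal in CD4 cells labelled knockout, and in CD8 cells their log2 differences were -0.02 and 0.41. Cd28, Ctla4 and Icos follow each other on mouse chromosome 1 with 0 protein-coding genes between neighbours. Cd28, the costimulator that nearly all T cells carry, read 7168 in knockout CD4 against 7981 in wildtype CD4 cells and 5282 in knockout CD8 against 5782 in wildtype CD8 cells. Its log2 differences of -0.15 and -0.13 were far smaller than those of Ctla4 and Icos in CD4 cells.

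Tnfrsf4 and Tnfrsf18 encode the costimulatory receptors OX40 and GITR of the TNF receptor family. They are also adjacent, on mouse chromosome 4, with 0 protein-coding genes between them. Tnfrsf4 read 1157 in CD4 cells labelled knockout against 4955 in CD4 cells labelled wildtype, and 429 against 610 in CD8 cells of the same labels. It was 4.28-fold lower in CD4 cells and 1.42-fold lower in CD8 cells labelled knockout, the lowest log2 difference of the group in CD8 cells (-0.51). Tnfrsf18 read 3022 in CD4 cells labelled knockout against 6095 in CD4 cells labelled wildtype, and 2117 against 1804 in CD8 cells of the same labels. Its 2.02-fold lower signal in CD4 cells is the member just inside the 2-fold limit, and it read 1804 or more on every array.

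Nrp1, Izumo1r and Gpr83 encode surface proteins. Nrp1, a coreceptor of semaphorins and VEGF found on thymus-derived regulatory T cells of the mouse, was read by 3 probe sets. The brightest, 1448943_at, gave 505 in CD4 cells labelled knockout against 3816 in CD4 cells labelled wildtype, and 419 against 343 in CD8 cells of the same labels. The other probe sets gave 271 against 1627 (1418084_at) and 125 against 1021 (1448944_at) in CD4 cells of the same labels. All 3 thus placed Nrp1 lower in CD4 cells labelled knockout, by 7.55-fold, 6.00-fold and 8.17-fold. In CD8 cells labelled knockout and wildtype 1418084_at gave 192.6 and 132.5 (log2 difference 0.54). There 1448944_at gave 65.8 and 82.9, below the floor. On the brightest probe set the knockout CD4 signal was 1.21-fold that of knockout CD8 cells.

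Izumo1r encodes folate receptor 4, a marker of regulatory and of anergic CD4 T cells in the mouse. It read 2629 in CD4 cells labelled knockout against 7024 in CD4 cells labelled wildtype, and 555 against 546 in CD8 cells of the same labels. CD4 cells labelled knockout were 2.67-fold below those labelled wildtype and still 4.73-fold above CD8 cells labelled knockout. Gpr83, a G protein-coupled receptor gene that is enriched in regulatory T cells of the mouse, is the next protein-coding gene to Izumo1r on mouse chromosome 9. It read 550 in CD4 cells labelled knockout against 487 in CD4 cells labelled wildtype, and 196 against 9.2 in CD8 cells of the same labels. Gpr83 was the 1 gene of the 10 that was not lower in CD4 cells labelled knockout (log2 0.17), and it was at least 2.08-fold higher in CD8 cells labelled knockout. Its neighbour Izumo1r was near level in CD8 cells, with a log2 difference of 0.02.

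Capg encodes an actin filament capping protein. It read 1505 in CD4 cells labelled knockout against 3653 in CD4 cells labelled wildtype, and 784 against 755 in CD8 cells of the same labels. Its signal was 2.43-fold lower in CD4 cells labelled knockout. Of other actin capping and severing genes, 0 of 9 were called at least 2-fold lower there, with a median log2 difference of 0.01. Among them Scin has only a bound, at least 1.22-fold lower (30.2 against 114 in CD4 cells labelled knockout and wildtype). Whether Scin passed 2-fold could not be judged. Gsn, the gelsolin gene, was 2.24-fold higher in CD4 cells labelled knockout by its brightest probe set, with 2737 against 1224. Its other probe sets stayed within 2-fold (1.92-fold, 1.73-fold and 1.69-fold higher and 1.13-fold lower) or were below the floor.

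In CD8 cells the same genes differed little between the labels. A difference could be given for 8 genes, of which 0 were at least 2-fold lower in cells labelled knockout and 1, Gpr83, at least 2-fold higher, where 4.29% of 8093 genes were lower and 1.21% higher. Their median log2 difference was 0.04, against -0.02 over all genes. Apart from Gpr83 they ran from -0.51 for Tnfrsf4 to 0.29 for Nrp1, which had 0.54 by its probe set 1418084_at. The small differences of Ctla4 (-0.18) and Icos (-0.02) turned to 0.03 and 0.19 with median centring. The log2 difference in CD4 cells minus that in CD8 cells was below 0 in these 8 genes, against 49.6% of the 7614 genes with a difference in both subsets, and at -1 or lower in 7 of the 8, against 5.94%. Among the differences that are not bounds it was lowest for Nrp1 (-3.21) and Ctla4 (-2.76) and nearest to 0 for Tnfrsf18 (-1.24). For Gpr83 it was -0.88 or lower, since its array labelled wildtype CD8 was at the floor. This contrast between the label differences of CD4 and CD8 cells has no residual spread and was not tested.

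**Figure D2:**
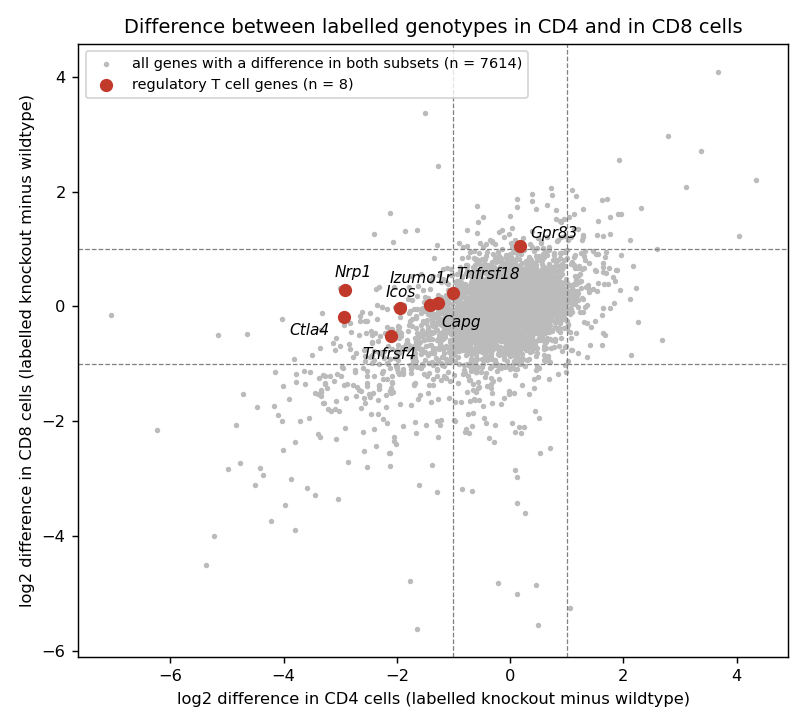
Log2 difference between the arrays labelled knockout and wildtype in CD4 cells (horizontal axis) and in CD8 cells (vertical axis); grey points are the 7614 genes with a difference in both subsets, red points 8 of the 10 genes, and dashed lines mark 2-fold. The red points spread along the horizontal axis from -2.94 for Ctla4 to 0.17 for Gpr83 and stay near 0 on the vertical axis except for Gpr83 at 1.06.

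Between the subsets, 9 of the 10 genes were higher in CD4 cells under both labels, by unequal amounts, and Ikzf2 was below the floor on both arrays labelled knockout. On the arrays labelled knockout, 4 of the 9 genes with a difference were at least 2-fold higher in CD4 than in CD8 cells (Foxp3, Izumo1r, Gpr83 and Tnfrsf4), and 0 at least 2-fold lower, where 1.41% of 7826 genes were higher and 2.13% lower. On the arrays labelled wildtype 9 of 10 were, with Ikzf2 left at its bound of 1.83-fold, and 0 were lower, where 5.18% of 8352 genes were higher and 3.23% lower. The median log2 difference was 0.94 on the arrays labelled knockout and 2.73 on those labelled wildtype, against 0.01 over all genes in both.

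Izumo1r had the largest CD4 excess of the group under both labels among the differences that are not bounds. It was 4.73-fold higher in CD4 than in CD8 cells labelled knockout, rank 5 of all 7826 genes, and 12.9-fold higher on the arrays labelled wildtype, rank 5 of 8352. Foxp3 was at least 2.36-fold higher in CD4 cells on the arrays labelled knockout and at least 8.77-fold on those labelled wildtype. Among the differences that are not bounds, Nrp1 and Ctla4 showed the widest contrast: their CD4 excess was 1.21-fold and 1.59-fold on the arrays labelled knockout, and 11.1-fold and 10.8-fold on those labelled wildtype. These differences and those between labels use the same 4 arrays and are not separate support for each other.

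**Figure D3:**
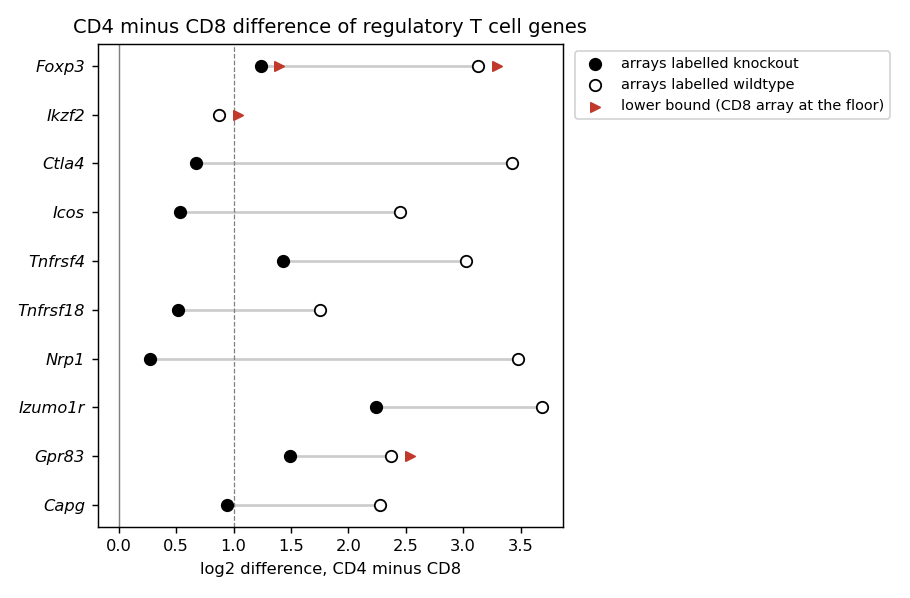
Log2 difference of CD4 minus CD8 cells for the 10 genes, on the arrays labelled knockout (filled) and wildtype (open), joined by a line for each gene; red arrowheads mark lower bounds, where the CD8 array was at the floor, and the dashed line is 2-fold. Each open point lies right of its filled point, and among genes without an arrowhead the gap is widest in Nrp1 and narrowest in Tnfrsf18; Ikzf2 has no filled point because both arrays labelled knockout were below the floor.

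The design allows 1 fit with a residual degree of freedom, in which limma took subset and labelled genotype as terms over 8629 genes. It called 0 of the 10 genes for the labelled genotype at an adjusted p under 0.05, where 0.649% of all genes were called. By limma 2 of 10 had an unadjusted p under 0.05, beside 1141 of all 8629 genes. The lowest was Tnfrsf4, with a log2 difference of -1.30 ± 0.36 (SE) and an adjusted p of 0.186, lower in knockout on 2 of 2 pairs of arrays. The residual of the fit is the label difference in CD4 cells minus that in CD8 cells. Limma moderates this residual towards a trend over all genes, with 5.39 prior against 1 residual degrees of freedom. The SE therefore rests on both and differed among the 10 genes. It was 0.59 for Ctla4 (log2 -1.56, adjusted p = 0.322 by limma) and 0.28 for Tnfrsf18 (log2 -0.39). For the subset the fit called Izumo1r alone of the 10, higher in CD4 cells (log2 2.96 ± 0.32 SE, adjusted p = 0.034 by limma). Over all genes 0.255% were called for the subset in either direction. With Izumo1r, 9 of the 10 had an unadjusted p under 0.05 by limma for the subset, beside 834 of all 8629 genes. The calls of this fit moved with the settings. With the floor at the 25th percentile limma called 9 of 10 for the subset (2.23% of all genes) and 3 of 10 for the labelled genotype (4.73% of all genes). The call of Izumo1r was lost with quantile normalization, median centring, averaged probe sets, no multi-transcript probe sets (which leave it out) and eBayes without the trend.

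By the distance between log2 profiles over the 4 arrays, each centred on its own mean, the gene nearest to Foxp3 was Sh3gl3, an endophilin gene (distance 0.32 log2 units), followed by Tnfrsf4 (0.39), the sialyltransferase gene St3gal2 (0.54), Sdcbp2 (0.57) and the choline dehydrogenase gene Chdh (0.59). Sh3gl3 read 170 in CD4 cells labelled knockout against 703 in CD4 cells labelled wildtype and was below the floor in CD8 cells. The gene nearest to Ctla4 was Chdh (0.28), followed by Gpm6b (0.34), Nrp1 (0.38), Sostdc1 (0.50) and Zbtb16 (0.56). These distances use signals set to the floor where they lay below it. Sostdc1 and Zbtb16 were below the floor on every array but wildtype CD4, and Gpm6b on both CD8 arrays. Their nearness to Ctla4, which was above the floor on all 4 arrays, thus depends on the floor. Zbtb16 encodes PLZF, a factor of natural killer T cells and other innate-like T cells, and read 11.7 in CD4 cells labelled knockout against 755 in CD4 cells labelled wildtype, with 8.0 and 37.0 in CD8 cells of the same labels. With 4 arrays these are near neighbours out of 8629 genes and no measure of a relation.

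Among further genes of regulatory T cell surface and function, 25 of 30 were at least 2-fold lower and 1 was higher in CD4 cells labelled knockout, with a median log2 difference of -2.19. In CD8 cells 12 of 25 were lower and 2 higher, with a median of -0.96, where 4.29% of all genes were lower and 1.21% higher. The largest were Cxcr3 (75.5-fold lower in CD4 cells), S100a4 (37.6-fold), S100a6 (27.2-fold) and Klrg1 (at least 22.6-fold), which memory and effector T cells share. Il2ra, the high-affinity chain of the interleukin 2 receptor and a defining surface protein of regulatory T cells, read 39.5 in CD4 cells labelled knockout against 640 in CD4 cells labelled wildtype, and 1.6 and 38.9 in CD8 cells of the same labels. It was thus at least 6.82-fold lower in CD4 cells labelled knockout, and its second probe set at least 3.58-fold.

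The genes of interleukin 2 signalling divided, with 4 of 15 at least 2-fold lower and 2 higher in CD4 cells labelled knockout. Their median log2 difference was 0.07, and the 2 higher were Socs3 (4.97-fold) and Bcl2 (2.03-fold). Il2 itself read 56.4 in CD4 cells labelled knockout against 605 in CD4 cells labelled wildtype, at least 6.45-fold lower. Il2rb, the signalling chain shared with interleukin 15, was lower in cells labelled knockout, by 8.98-fold in the CD4 and 3.53-fold in the CD8 subset. Of transcription factors and partners of Foxp3 outside the 10 genes, 7 of 23 were at least 2-fold lower and 3 higher in CD4 cells labelled knockout, with a median of -0.33. The largest were Rora (9.99-fold lower), Prdm1 (5.41-fold), Ezh2 (5.30-fold) and Nfatc1 (3.94-fold). The 3 higher were Bach2 (3.11-fold), Satb1 (2.61-fold) and Lef1 (2.53-fold).

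Follicular helper T cell genes without Icos were lower as a list, with 7 of 9 at least 2-fold lower and 0 higher in CD4 cells labelled knockout and a median of -1.26. Pdcd1, which encodes the inhibitory receptor PD-1, read 174 in CD4 cells labelled knockout against 1966 in CD4 cells labelled wildtype. Cxcr5, the B cell follicle homing receptor gene, was 10.2-fold lower there, and Il21, the cytokine gene, at least 5.65-fold. Of the TNF receptor family costimulators and their ligands outside Tnfrsf4 and Tnfrsf18, 4 of 15 were at least 2-fold lower and 0 higher. Among them were Tnfsf14 (at least 20.5-fold) and Tnfrsf1b (3.69-fold, and 1.79-fold by its other probe set). Of the CD28 family and its ligands outside Ctla4 and Icos, 2 of 7 were lower (Pdcd1 and Pdcd1lg2), and of the semaphorin and neuropilin partners of Nrp1, 1 of 3 (Plxnd1, at least 2.16-fold). The lists share members, such as Pdcd1, Il2ra and Socs2, and they stand beside 7.73% lower and 2.06% higher over all genes.

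**Figure D4:**
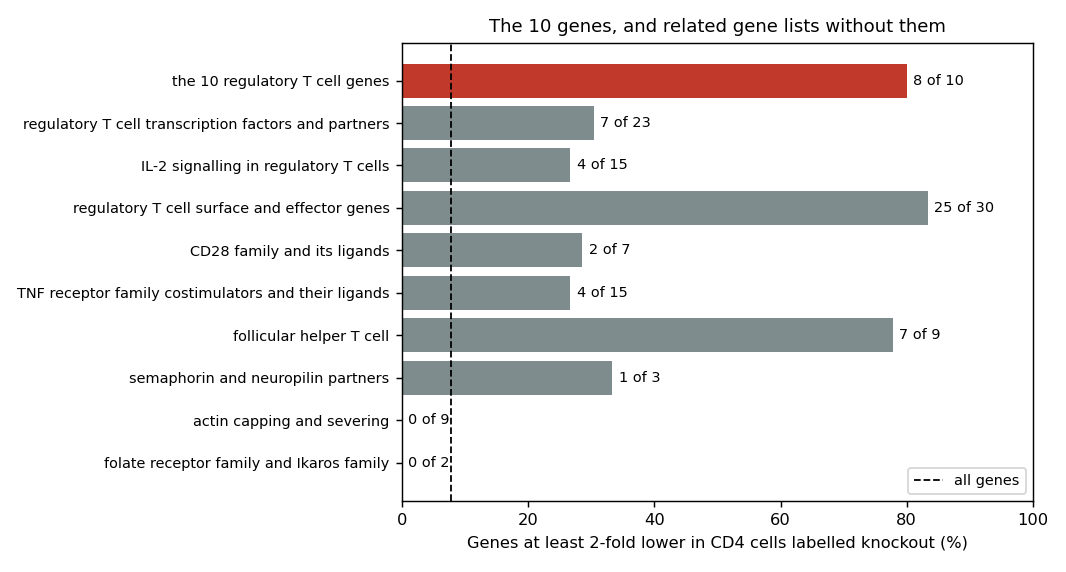
Share of genes at least 2-fold lower in CD4 cells labelled knockout than in those labelled wildtype, for the 10 genes (red) and for related lists without them (grey), with counts beside the bars; the dashed line is the share over all genes, 7.73%. The bars of the 10 genes, of the further surface and effector genes (25 of 30) and of the follicular helper genes (7 of 9) reach well past the line, and 0 of 9 actin genes do.

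Markers of other cell types that a sort could hold were read beside these results. The summed signal of 3 natural killer cell genes was 3890 in CD4 cells labelled knockout against 7479 in CD4 cells labelled wildtype, and 26391 against 28020 in CD8 cells of the same labels. Its members differed in direction: Nkg7 read 179 in knockout CD4 against 4486 in wildtype CD4 cells, Klrd1 read 3695 against 2955 in the same order, and Ncr1 was below the floor on all 4 arrays. Of 6 B cell genes 1 lay above the floor in knockout CD4 and 2 in wildtype CD4 cells, with Cd79a, Ms4a1 and Pax5 below it on all 4 arrays. Both that could be compared were lower in CD4 cells labelled knockout, Cd22 with 154 against 1124 in CD4 cells labelled wildtype (7.30-fold) and Cd79b with 57.1 against 305 (at least 3.25-fold). Of 5 dendritic cell genes, 2 and 0 lay above the floor in CD4 cells labelled knockout and wildtype, and 1 and 5 in CD8 cells of the same labels. Of 5 macrophage and monocyte genes, 2 and 4 did in CD4 cells and 2 and 3 in CD8 cells of these labels. In CD4 cells labelled knockout and wildtype Csf1r read 197 and 193, Cd68 95.4 and 140, and Lyz2 36.1 and 102, and in CD8 cells of these labels Cd68 read 137 and 342 and Lyz2 3.3 and 285. Cd8b1 read 971 in knockout CD4 against 312 in wildtype CD4 cells, and Cd8a lay below the floor in both. The part of the natural killer, B cell and myeloid genes and of Cd8b1 in the CD4 differences was not tested.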

How the data were processed

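Per the labels, RNA of sorted spleen T cells, pooled from 2 mice for each of 4 arrays, was isolated with TRIzol, and biotin-labelled cRNA was made from it. The authors deposited signal intensities on a linear scale, 1 for each probe set. The submitters' processing notes list GCOS 1.4 and MAS5; other steps were not stated in the sources used here. Each array has a 2% trimmed mean between 980 and 983, so the authors' intensity values appear scaled alike. Detection calls were not used.

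Control probe sets (64) were left out. Signals below the 40th percentile of the rest (93.9) were set to it before log2. A difference with 1 array at this floor is a bound, and none is given where both are. Of 20380 probe sets with 1 symbol, 20351 matched mouse RefSeq (GRCm38.p6), which gave current names and gene neighbours. Each gene was represented by its probe set with the highest mean, which gave 12393 genes. Differences are knockout minus wildtype as labelled, or CD4 minus CD8, and 2-fold was the limit of size. Limma 3.58.1 (R 4.3.3; eBayes with trend, 5.39 prior and 1 residual degrees of freedom, Benjamini-Hochberg over 8629 genes) fitted both terms. Its residual is the label difference in CD4 cells minus that in CD8 cells and measures no spread between animals. All else was done in Python 3.11.15 with pandas 2.3.3, numpy 2.4.6 and matplotlib 3.10.9.

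The 10 genes and the lists were chosen with earlier results of these data known. Beside the 10 genes, the text names gene neighbours of the same family, up to 4 genes of a list by the size of the CD4 difference, the 5 genes nearest in profile to Foxp3 and to Ctla4, and Gfi1, Cd44, Cd4, Cd8a, Cd3e and Il2ra. Other genes (Cd79a, Ms4a1, Pax5, Csf1r, Cd8b1, Ncr1 and the second of a pair) were named for their markers' role. Socs3, Bcl2, Bach2, Satb1 and Lef1 were named as the higher genes of their lists. The T cell markers outside Cd3e (Cd3d, Cd3g and Cd247) were above the floor on all arrays.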

Additional observations from a re-analysis of the deposited data

Results flagged for a closer look

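Among the 10 genes, 4 had differences of opposite sign in the subsets, with at least 2-fold in CD4 cells: they were lower in CD4 cells labelled knockout and slightly higher in CD8 cells labelled knockout. The CD4 difference minus the CD8 difference was -3.21 for Nrp1 (log2 -2.92 in CD4 and 0.29 in CD8 cells), -1.44 for Izumo1r (-1.42 and 0.02), -1.33 for Capg (-1.28 and 0.05) and -1.24 for Tnfrsf18 (-1.01 and 0.23). These are 4 of the 8 genes with a difference in both subsets, where 161 of 7614 genes (2.11%) had opposite signs with at least 2-fold in 1 subset. With 1 array per group this contrast of the subsets was not tested, and the CD8 values are small. Which genes meet the rule depends on the probe set and the scaling. Icos met it by its probe set 1421931_at (-1.88 and 0.41). With median centring Capg (-0.97) and Tnfrsf18 (-0.70) fell short of 2-fold in CD4 cells. Ctla4 and Icos turned to 0.03 and 0.19 in CD8 cells under that setting.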

How the results depend on the processing

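No paired analysis was possible because each group has 1 array and the labels give no replicate numbers, and for the same reason no array could be left out. The alternatives were quantile normalization, arrays centred on their medians, floors at the 25th and 60th percentiles, no floor, a pseudocount of 16, averaged probe sets and no multi-transcript probe sets. Under all but the last of these, 6 to 9 of the 10 genes were at least 2-fold lower in CD4 cells labelled knockout. The share over all genes there ran from 4.27% with the floor at the 60th percentile to 17.9% without a floor. The floor at the 60th percentile gave 7, and Ikzf2 had no difference under it. Without multi-transcript probe sets 4 of 6 were lower (7.73% of all genes), and Foxp3, Izumo1r, Capg and Tnfrsf18 were left out by construction. With median centring Capg (-0.97) and Tnfrsf18 (-0.70) fell short of the 2-fold limit, as did Foxp3 with the floor at the 60th percentile (a bound of -0.87), and no called difference of a single gene changed sign under any of these alternatives. In CD8 cells the 1 gene higher became 0 with the floor at the 60th percentile (0.576% of all genes). On the arrays labelled knockout, the count higher in CD4 than in CD8 cells was 4 as reported (1.41% of all genes) and 2 with that floor (0.534%). Without multi-transcript probe sets it was 2 of 6 (1.39%). On the arrays labelled wildtype it was 9 of 10 as reported (5.18%) and 5 of 6 without multi-transcript probe sets (4.93%).

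Limma's calls among the 10 genes were 0 for the labelled genotype as reported, 3 with the floor at the 25th percentile, 1 without a floor and 1 with the pseudocount, where the share over all genes was 0.649%, 4.73%, 4.83% and 3.69%. For the subset they were 1 as reported, 9 with the floor at the 25th percentile, 8 without a floor and 6 with the pseudocount (0.255%, 2.23%, 2.34% and 1.60% of all genes), 3 when only genes with all 4 arrays above the floor were fitted (1.54%), and 0 with quantile normalization, median centring, averaged probe sets, no multi-transcript probe sets or eBayes without the trend. Without the trend limma called 0 of 8629 genes for the labelled genotype, with 996 at an unadjusted p under 0.05. Precision is limited by the single array of each group, and signals near the floor (Ikzf2, and Foxp3 and Gpr83 in CD8 cells) give bounds.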
